A study of Homo sapiens with 8 samples.

Results

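Interferon-stimulated genes are the genes that cells switch on when interferon, a secreted antiviral signal, binds its receptor. 55 of them were followed here in 2 human myeloma cell lines after transduction with CTBP2, a transcriptional corepressor. The 55 genes were listed by symbol, and all 55 were rows of the deposited table of 25906 genes. 45 of the 55 had at least 1 FPKM (fragments per length of transcript and per total of fragments) in at least 2 libraries and were kept for testing, and the other 10 were below that filter.

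The series holds 8 RNA-seq libraries of MM.1S and NCI-H929, established lines of multiple myeloma, a cancer of plasma cells. For each line the labels give 2 libraries from cells transduced by lentivirus with an empty vector and 2 from cells transduced with a CTBP2 overexpression vector, all harvested at 72 h. The empty vector cells therefore carried a lentivirus too, and the promoter that drives CTBP2 is not given in the sources used here. The study asked which genes of the whole transcriptome change with CTBP2 in these lines. The labels call the duplicates biological but tie no replicate number to a culture or day, so p-values measure the spread between these libraries.

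Each line was read from expression, with CCND2 above 10 FPKM taken as MM.1S and FGFR3 above 10 FPKM as NCI-H929, and 2 of the 8 libraries went against their line labels. FGFR3 was at 22.2 FPKM and CCND2 at 0.0582 FPKM in 1 of them, the library labelled MM.1S CTBP2 replicate 2. The other, the library labelled NCI-H929 CTBP2 replicate 2, held 0.0399 FPKM of FGFR3 and 60.7 FPKM of CCND2. Comparisons below place these libraries with the line whose genes they express, and counts with the lines as labelled, and without both libraries, are given for each comparison. The labelled vector did fit CTBP2 itself, which had 0.148 to 0.213 FPKM in the empty vector libraries and 1621 to 5884 FPKM in the CTBP2 libraries. Depth, estimated from steps between low FPKM values, was 16000000 to 21000000 fragments per library.

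The plasma cell markers fit the labelled cell type, with a summed level of 1376 to 2288 FPKM with empty vector and 1081 to 1926 FPKM with CTBP2, and 1 of the 6, TNFRSF17, was called lower. Of 4 T cell markers found of 5 listed, CD3E alone reached 1 FPKM. The T cell sum was 0.544 to 3.70 FPKM with empty vector and 2.62 to 54.4 FPKM with CTBP2, and CD3E was called higher in both lines together (limma adjusted p = 0.00925). CD2 was listed at 0 in the 4 empty vector libraries and at 0.185 to 0.955 FPKM in the 4 with CTBP2, while CD3D and CD3G stayed at or under 0.213 FPKM in all 8 libraries. Summed myeloid markers ran from 0.544 to 0.679 FPKM with empty vector and from 0.814 to 4.81 FPKM with CTBP2. ITGAM, the only 1 of 5 that was tested, was called higher. For epithelial markers the sums were 0.928 to 18.4 FPKM and 2.28 to 27.2 FPKM. KRT18 held most of the highest sums, at 13.8 to 26.3 FPKM in the NCI-H929-expressing libraries. It was called higher in NCI-H929 (limma adjusted p = 0.0338) and not in both lines together (adjusted p = 0.0834). EPCAM, 1 of 2 tested, was called higher. ITGAM and EPCAM reached 1 FPKM only in the MM.1S-expressing CTBP2 libraries, so their rises are given as a description. Both calls were lost without both CTBP2 replicate 2 libraries (limma adjusted p = 0.0557 and 0.0537). Sums of plasmacytoid dendritic cell markers, cells known for making interferon, were at most 0.581 FPKM with empty vector and 0.461 FPKM with CTBP2, with CLEC4C at 0 in all libraries, and fibroblast sums were at most 0.466 and 0.727 FPKM. The part of CD3E, CD2, ITGAM and EPCAM in the results below was not tested. In such bulk RNA, a change in the share of cells that express a gene and a change in RNA per cell cannot be told apart.

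Type I interferons signal through the receptor chains IFNAR1 and IFNAR2 and the kinases JAK1 and TYK2 to the transcription factor complex ISGF3, which holds STAT2 and IRF9. ISGF3 binds the interferon-stimulated response element in promoters, whereas the gamma-activated site is an element of promoters that respond to interferon gamma. The proteins made in response sense viral RNA, degrade or block it, tag proteins with ISG15, or trap virus particles, and some, such as STAT2, IRF9 and IRF7, carry the signal itself.

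Promoters of 44 of the 55 genes were found in RefSeq (GRCh38.p14, whereas the expression files name hg19), as windows of 300 bases from 250 before to 50 after the start. The core of the response element, GAAA, any 2 bases and GAAA on either strand, was in 27 of these 44 (61.4%), against 3.57% of all 35116 promoters in the table. The gamma-activated motif TTCNNNGAA, read the same on both strands, was in 11 of 44 (25%), against 7.66% of all promoters, and 4 genes held both in overlap. Windows are shown for IFI44, EPSTI1, MX1 and PARP12, the called genes with the smallest p that hold the core, with the matching letters in capitals. Printed along the strand of the gene, the core reads TTTC, 2 bases and TTTC in IFI44, at -18 from the start, and in PARP12, at -10. In EPSTI1 it lies at -50, before the start, and in MX1 at +11, after it. The windows are chr1:78649539-78649838 on the plus strand for IFI44, chr13:42992192-42992491 on the minus strand for EPSTI1, chr21:41420308-41420607 on the plus strand for MX1 and chr7:140062902-140063201 on the minus strand for PARP12.
IFI44: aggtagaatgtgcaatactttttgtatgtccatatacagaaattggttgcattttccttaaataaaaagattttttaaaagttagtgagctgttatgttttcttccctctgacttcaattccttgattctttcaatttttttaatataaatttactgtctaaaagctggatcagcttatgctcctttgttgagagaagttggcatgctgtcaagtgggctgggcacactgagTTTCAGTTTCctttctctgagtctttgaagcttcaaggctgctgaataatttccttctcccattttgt
EPSTI1: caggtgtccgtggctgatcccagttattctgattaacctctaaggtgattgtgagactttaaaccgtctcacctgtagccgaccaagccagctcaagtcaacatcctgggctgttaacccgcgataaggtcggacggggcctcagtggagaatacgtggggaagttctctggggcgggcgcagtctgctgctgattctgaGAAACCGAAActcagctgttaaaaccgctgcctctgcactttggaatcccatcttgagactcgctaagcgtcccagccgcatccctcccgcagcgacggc
MX1: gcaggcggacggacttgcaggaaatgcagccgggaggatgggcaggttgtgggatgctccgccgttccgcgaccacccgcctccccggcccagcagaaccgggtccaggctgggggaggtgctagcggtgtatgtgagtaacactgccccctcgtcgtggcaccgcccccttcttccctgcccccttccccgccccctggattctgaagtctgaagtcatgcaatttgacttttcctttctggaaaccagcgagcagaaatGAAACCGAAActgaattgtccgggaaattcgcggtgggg
PARP12: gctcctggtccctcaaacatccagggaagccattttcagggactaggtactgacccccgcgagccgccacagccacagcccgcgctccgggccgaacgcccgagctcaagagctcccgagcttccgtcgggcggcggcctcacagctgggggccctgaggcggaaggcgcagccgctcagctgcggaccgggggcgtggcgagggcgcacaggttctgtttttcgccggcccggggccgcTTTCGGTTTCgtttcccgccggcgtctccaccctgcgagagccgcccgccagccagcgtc

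With CTBP2, most of the kept interferon-stimulated genes rose. In both lines together, on the log2(FPKM + 1) scale, 30 of 45 were called higher (limma adjusted p under 0.05 over all genes) against 17.4% of the 12583 genes tested, and 1, IFITM1, was called lower against 16.7%. 14 were not called. The median log2 difference of the 45 was 0.88, against 0.035 over all genes tested, and 42 of 45 were above 0. All 4 CTBP2 libraries lay above all 4 empty vector libraries for 14 genes, against 7.21% of all genes tested, and all 14 were among those called. These were IRF7, DDX58, DDX60, OAS1, IFIT3, PARP9, DTX3L, PARP12, PARP14, MX1, GBP2, XAF1, IFI6 and IFI44.

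Without both CTBP2 replicate 2 libraries, 24 of the 30 were still called higher, against 11.5% of all genes. With the lines as labelled 9 were, against 1.53%, namely DDX58, DDX60, PARP9, DTX3L, PARP12, PARP14, MX1, GBP2 and XAF1. 18 genes were called in each of the 8 fits that left out 1 library and in each other alternative in which they were tested, apart from lines as labelled. They were STAT2, IRF9, IRF7, IFIH1, DDX58, DDX60, IFIT3, PARP9, DTX3L, PARP12, PARP14, MX1, GBP2, XAF1, IFI6, IFI44, EPSTI1 and RTP4. A gene may pass the filter through its CTBP2 libraries alone, as DDX60, IFIT3, PARP9, GBP2, XAF1 and UBD did. These 6 were under 1 FPKM in all 4 empty vector libraries. They are among the genes called above, and their rises are given as a description. IFI44, HERC6, IFIT1 and IFI27 reached 1 FPKM in only 1 empty vector library, so they too needed CTBP2 libraries to pass. Of these, IFI44 and HERC6 are among the genes called above, and their rises are likewise a description. So the count was repeated among genes with 1 FPKM in at least 2 empty vector libraries. There 22 of 35 rose, against 15.0% of all such genes. With no filter 22 of the 55 rose, against 4.65% of all genes. Equal library totals without immunoglobulin genes and CTBP2 moved the median of all genes to 0.27. The share of called genes that were higher went from 51.0% to 81.2%. Under this scaling 36 of the 45 were higher, against 3776 of the 12583 genes tested, with a median of 1.05. IFITM1 was then no longer called.

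**Figure D1:**
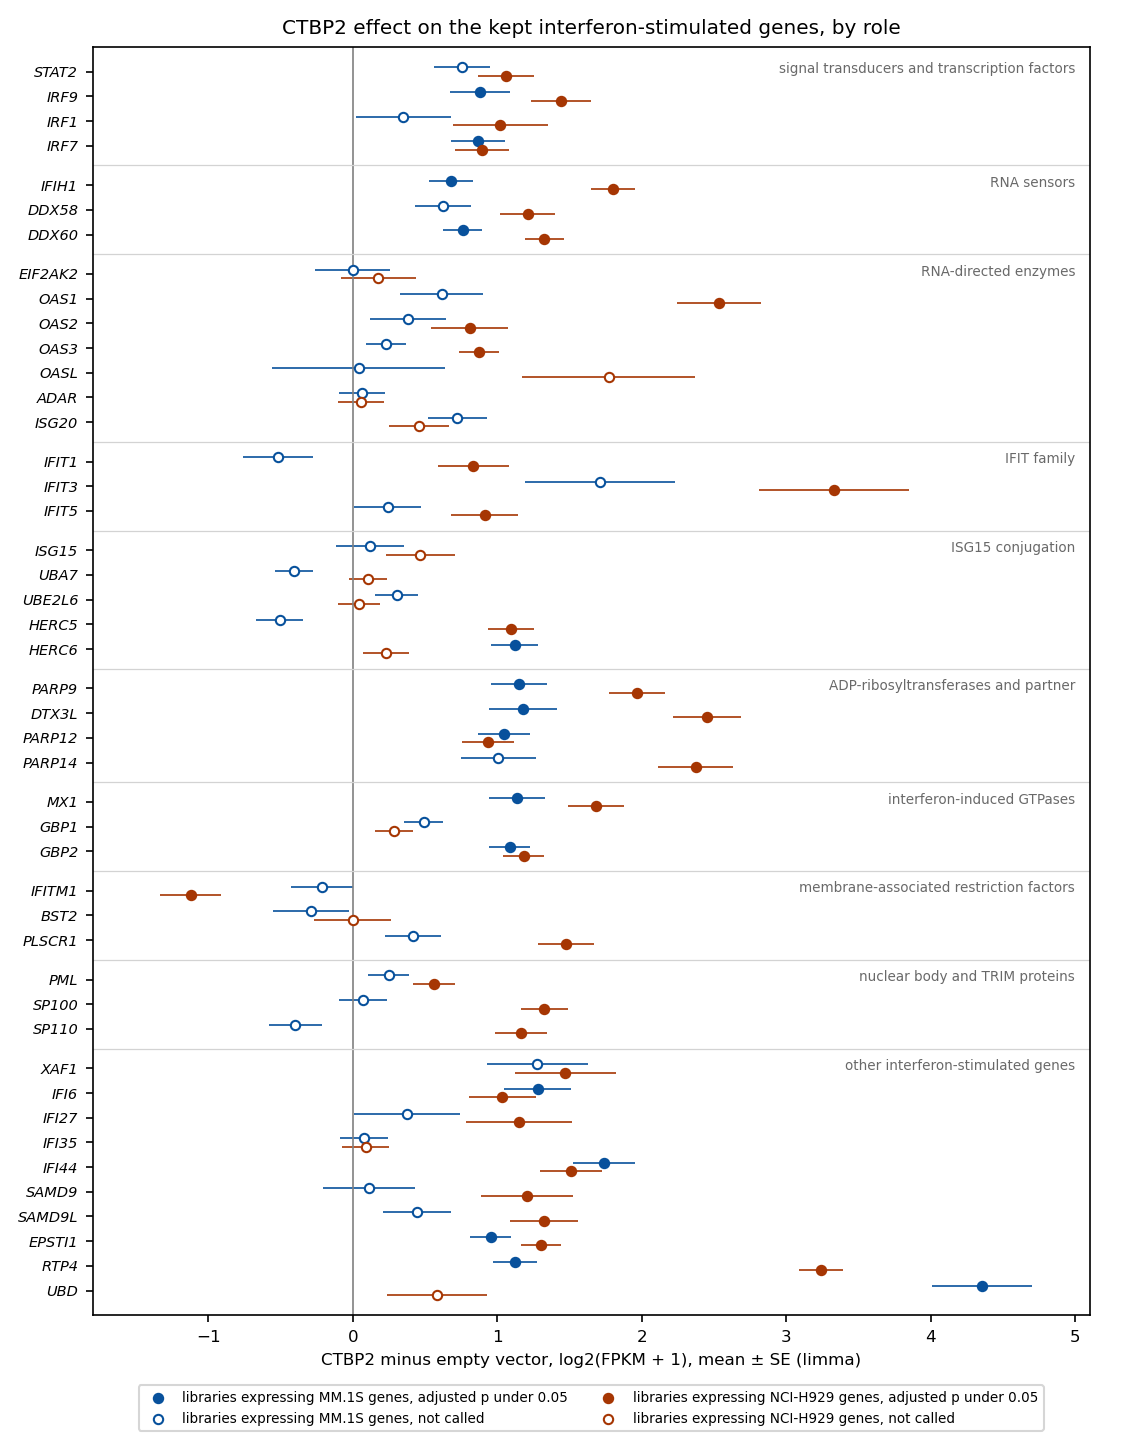
Difference between CTBP2 and empty vector libraries on the log2(FPKM + 1) scale (x axis) for the 45 kept interferon-stimulated genes (y axis, grouped by role), in blue for the libraries that express MM.1S genes and in orange for those that express NCI-H929 genes. Points are limma estimates from 2 libraries per line and vector, bars are standard errors, and filled points have an adjusted p under 0.05. Filled points lie right of 0 for 15 genes in MM.1S and 32 in NCI-H929, and IFITM1 is the filled point left of 0.

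By line, 15 of the 45 rose in the MM.1S-expressing libraries, against 3.67% of all genes, and 0 fell, against 1.8%. At an unadjusted limma p under 0.05, 2 were lower, against 1655 of the 12583 genes tested. In the NCI-H929-expressing libraries 32 rose, against 18.3%, and IFITM1 fell, against 14.6%. The median log2 difference was 0.49 in MM.1S and 1.09 in NCI-H929, against 0 and 0.046 over all genes. 13 genes rose in each line by its own test, namely IRF9, IRF7, IFIH1, DDX60, PARP9, DTX3L, PARP12, MX1, GBP2, IFI6, IFI44, EPSTI1 and RTP4. Both CTBP2 libraries lay above both empty vector libraries of the line for 32 genes in MM.1S, for 40 in NCI-H929 and for 31 in both. The MM.1S count rests on single libraries. Of its calls, all but UBD were lost with either MM.1S empty vector library or MM.1S CTBP2 replicate 1 left out. UBD had passed the filter only through its MM.1S-expressing CTBP2 libraries. With single NCI-H929 libraries left out, the MM.1S count moved in both directions. Some NCI-H929 calls were lost without NCI-H929 empty vector replicate 1. Such fits leave 1 library in a group, and shares of all genes called in them are not given here. Without both CTBP2 replicate 2 libraries 21 genes were called in MM.1S and 28 in NCI-H929, against 11.4% and 15.3% of all genes. With the lines as labelled 0 were called by limma in either line, against 0.0238% and 0.0556%. At an unadjusted limma p under 0.05 there were 15 in MM.1S and 27 in NCI-H929, against 2429 and 2090 of the 12583 genes tested.

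In the values that follow, each pair of FPKM gives replicate 1 before replicate 2, so the second value of a CTBP2 pair is always the library that goes against its line label. Log2 differences are CTBP2 minus empty vector on the log2(FPKM + 1) scale from limma, over 4 against 4 libraries in both lines together and 2 against 2 within a line. They understate the change of genes near or under 1 FPKM.

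Among the 4 signal transducers and transcription factors, 3 rose in both lines together. STAT2, a subunit of ISGF3, had 35.6 and 30.03 FPKM with empty vector and 63.5 and 49.2 with CTBP2 in the MM.1S-expressing libraries, and 7.66 and 10.1 then 18.3 and 20.7 in the NCI-H929-expressing ones. IRF9, the DNA-binding part of ISGF3, went from 5.11 and 4.297 to 11.99 and 7.45 FPKM in MM.1S and from 12.4 and 11.7 to 34.3 and 34.3 in NCI-H929. IRF7, the factor that drives interferon alpha genes, read 8.91 and 10.1 and then 20.8 and 15.9 FPKM in MM.1S, and 13.8 and 10.99 and then 22.1 and 25.7 in NCI-H929. For all 3, both CTBP2 libraries of a line lay above both empty vector libraries of that line, and only for IRF7 did the 4 CTBP2 libraries also lie above all 4 empty vector libraries. The log2 differences were 0.91 ± 0.14 (SE) for STAT2 (limma adjusted p = 0.00453), 1.16 ± 0.17 for IRF9 (adjusted p = 0.003798) and 0.88 ± 0.13 for IRF7 (adjusted p = 0.00375). IRF1, a factor induced by interferon gamma, had 26.3 and 29.04 FPKM with empty vector and 37.7 and 33.4 with CTBP2 in MM.1S, and 11.1 and 17.1 and 19.9 and 42.2 in NCI-H929. Its libraries did not overlap within a line, but the 2 NCI-H929-expressing CTBP2 libraries stood far apart, and in both lines together IRF1 was not called at 0.69 ± 0.25 (limma adjusted p = 0.0571).

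All 3 RNA sensors rose in both lines together. IFIH1 (MDA5), which senses long double-stranded RNA, had 14.6 and 14.3 FPKM with empty vector and 24.5 and 22.98 with CTBP2 in MM.1S, and 2.65 and 2.54 and 10.3 and 12.9 in NCI-H929. DDX58 (RIG-I), which senses RNA ends, read 1.06 and 1.25 against 3.04 and 1.72 FPKM in MM.1S and 0.321 and 0.352 against 2.04 and 2.15 in NCI-H929. DDX60, a helicase linked to RIG-I signalling, was near 0 with empty vector, going from 0.0566 and 0.0597 to 0.9502 and 0.647 FPKM in MM.1S and from 0.00802 and 0.0364 to 1.47 and 1.67 in NCI-H929. The CTBP2 libraries of each line lay above its empty vector libraries for all 3 genes. IFIH1 had the higher empty vector level in MM.1S, and its NCI-H929 CTBP2 libraries came up to just under that level. The log2 differences in both lines together were 1.24 ± 0.21 for IFIH1 (limma adjusted p = 0.00531), 0.92 ± 0.17 for DDX58 (adjusted p = 0.00658) and 1.04 ± 0.15 for DDX60 (adjusted p = 0.00341). DDX60 reached 1 FPKM only in the NCI-H929-expressing CTBP2 libraries, so its rise is given as a description.

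Of 7 enzymes that act on RNA, 4 rose in both lines together, and they were OAS1, OAS2, OAS3 and ISG20. The OAS proteins are enzymes that double-stranded RNA activates. OAS1 had 14.9 and 12.2 FPKM with empty vector and 25.3 and 17.7 with CTBP2 in MM.1S, against 3.78 and 7.88 and 37.6 and 36.02 in NCI-H929. OAS3 stayed between 1.22 and 1.95 FPKM in all MM.1S-expressing libraries, and went from 0.0366 and 0.0499 to 0.909 and 0.915 FPKM in NCI-H929. ISG20, an exonuclease, read 35.7 and 41.9 then 68.4 and 60.99 FPKM in MM.1S and 31.2 and 34.8 then 55.6 and 37.6 in NCI-H929. The OAS1 libraries with CTBP2 were above all 4 with empty vector, while the second NCI-H929-expressing CTBP2 library of ISG20 lay within the range of the MM.1S empty vector libraries. Log2 differences were 1.58 ± 0.37 for OAS1 (limma adjusted p = 0.0133), 0.55 ± 0.15 for OAS3 (adjusted p = 0.0238) and 0.59 ± 0.15 for ISG20 (adjusted p = 0.0162). Without both CTBP2 replicate 2 libraries OAS2 and OAS3 were not called, with adjusted p of 0.0609 and 0.08701. OASL, an OAS-like protein, had 0.0874 and 0.369 FPKM with empty vector and 0.239 and 0.271 with CTBP2 in MM.1S, and 1.53 and 1.005 and 16.2 and 2.42 in NCI-H929, where 1 library stood far above the other. It was not called (log2 difference 0.91 ± 0.49, limma adjusted p = 0.173), nor were EIF2AK2, the kinase PKR that stops translation (0.088 ± 0.18), and ADAR, the RNA editor (0.06 ± 0.11).

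The IFIT genes, whose proteins bind viral RNA, had 2 of the 3 kept called higher in both lines together and all 3 in NCI-H929. IFIT3 had 0.488 and 0.9 FPKM with empty vector and 5.904 and 3.38 with CTBP2 in MM.1S, and 0.403 and 0.408 and 26.2 and 6.33 in NCI-H929. All 4 CTBP2 libraries lay above all 4 empty vector libraries, and NCI-H929 CTBP2 replicate 1 was well above the other 3. The log2 difference of IFIT3 was 2.52 ± 0.44 in both lines together (limma adjusted p = 0.00549). IFIT1 read 0.648 and 1.05 FPKM with empty vector and 0.323 and 0.251 with CTBP2 in MM.1S, where its CTBP2 libraries were the lower ones and the change was not called (limma adjusted p = 0.216). In NCI-H929 it had 0.113 and 0.722 and then 1.92 and 1.09 FPKM and rose, by 0.83 ± 0.24 (limma adjusted p = 0.0333), and the difference between the lines was not called (adjusted p = 0.113). In both lines together IFIT1 was not called (log2 difference 0.16 ± 0.28, limma adjusted p = 0.676), and its sign changed when 1 NCI-H929 replicate 1 library was left out. IFIT5 was called at 0.58 ± 0.20 (limma adjusted p = 0.0495), and not without both CTBP2 replicate 2 libraries (adjusted p = 0.122). IFIT2 was below the filter, and its highest value of 0.8 FPKM was in NCI-H929 CTBP2 replicate 1.

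The genes of ISG15 conjugation, which attach the ubiquitin-like protein ISG15 to other proteins, were for the most part not called. In both lines together 1 of 5 was higher (20%), against 17.4% of all genes. ISG15 itself had 5.35 and 5.64 FPKM with empty vector and 5.69 and 6.44 with CTBP2 in MM.1S, and 35.8 and 32.5 and 62.7 and 35.9 in NCI-H929. The 4 MM.1S-expressing libraries were all well below the 4 NCI-H929-expressing ones, and the second NCI-H929-expressing CTBP2 library sat just above its empty vector pair. The log2 difference of ISG15 was 0.29 ± 0.17 (limma adjusted p = 0.203). UBA7, the activating enzyme, and UBE2L6, the conjugating enzyme, had differences of -0.15 ± 0.13 and 0.17 ± 0.11 and were not called. HERC5, the main ISG15 ligase, had 10.4 and 10.6 FPKM with empty vector and 6.52 and 7.72 with CTBP2 in MM.1S, but 2.91 and 3.503 and 8.67 and 7.299 in NCI-H929. Its CTBP2 libraries were the lower ones in MM.1S, where the change was not called (limma adjusted p = 0.0943), and the higher ones in NCI-H929, where it rose (adjusted p = 0.00337). In both lines together HERC5 was not called (0.29 ± 0.29, limma adjusted p = 0.436). HERC6, a related ligase, was the called gene (0.68 ± 0.19, limma adjusted p = 0.0257), with 1.39 and 0.9002 FPKM with empty vector and 4.09 and 3.23 with CTBP2 in MM.1S. In NCI-H929 HERC6 was listed at 0 in both empty vector libraries and at 0.167 and 0.179 FPKM with CTBP2, and without both CTBP2 replicate 2 libraries the call was lost (adjusted p = 0.0577).

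All 4 genes of the ADP-ribosyltransferase group rose. PARP9 and DTX3L encode partners in a complex of ADP-ribosyltransferase and ubiquitin ligase, and lie next to each other in the genome. PARP9 had 0.434 and 0.212 FPKM with empty vector and 2.36 and 1.54 with CTBP2 in MM.1S, and 0.0882 and 0.285 and 4.15 and 3.16 in NCI-H929. DTX3L went from 1.803 and 1.22 to 5.398 and 3.96 FPKM in MM.1S and from 0.161 and 0.442 to 4.87 and 7.5 in NCI-H929. Both genes were above their empty vector level in every CTBP2 library of either line. PARP12, an antiviral mono-ADP-ribosyltransferase whose promoter is shown above, read 1.91 and 2.27 then 5.85 and 4.94 FPKM in MM.1S and 2.81 and 2.94 then 5.45 and 7.52 in NCI-H929. PARP14, a further mono-ADP-ribosyltransferase, read 4.21 and 3.54 then 10.01 and 7.68 FPKM in MM.1S and 0.403 and 0.7202 then 5.21 and 9.46 in NCI-H929. For each of the 4 genes every CTBP2 library was above every empty vector library. Over both lines the log2 differences were 1.56 ± 0.20 for PARP9 (limma adjusted p = 0.00276), 1.81 ± 0.27 for DTX3L (adjusted p = 0.003802), 0.99 ± 0.13 for PARP12 (adjusted p = 0.00277) and 1.69 ± 0.29 for PARP14 (adjusted p = 0.00512). Where counting did not use strand, which the sources used here do not state, reads of neighbouring genes such as PARP9 and DTX3L can be mixed where they overlap.

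**Figure D2:**
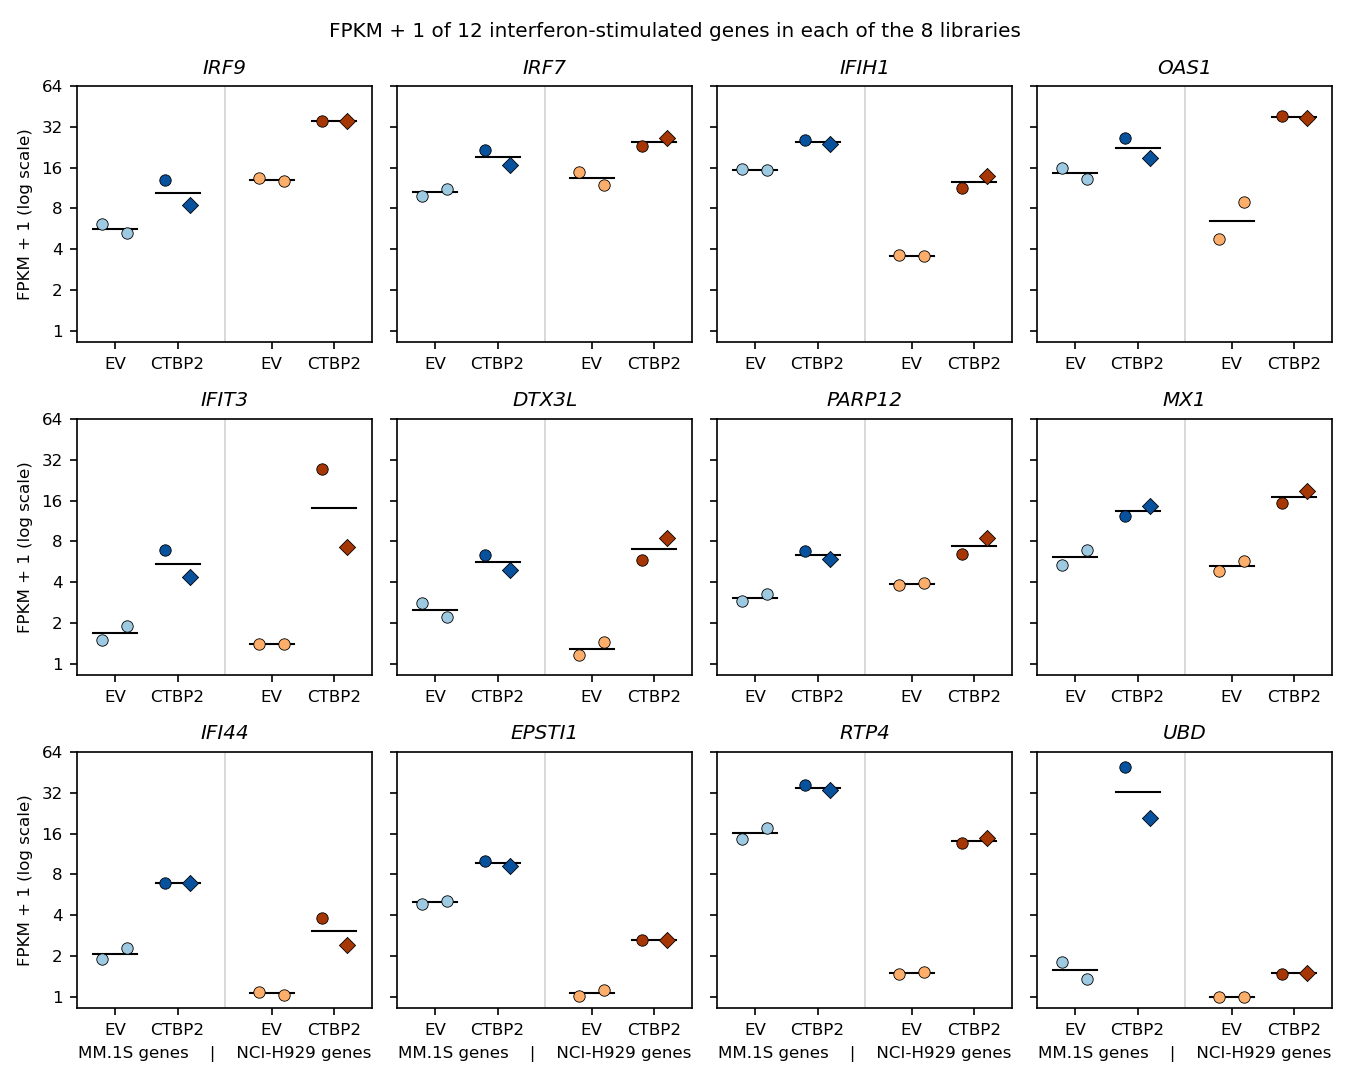
FPKM + 1 on a log scale (y axis) of 12 interferon-stimulated genes in each of the 8 libraries, by vector and by the line whose genes the library expresses (x axis). Points are single libraries, diamonds are the 2 CTBP2 libraries that go against their line label, and lines are geometric means of 2 libraries. In each panel both CTBP2 libraries lie above both empty vector libraries of the same line. All 12 genes shown were called higher in both lines together, and 31 of the 45 kept genes had this order in both lines.

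The 3 kept interferon-induced GTPases rose in both lines together. MX1, which blocks viral nucleoproteins, had 4.39 and 5.95 FPKM with empty vector and 11.3 and 13.7 with CTBP2 in MM.1S, and 3.87 and 4.697 and 14.3 and 17.8 in NCI-H929. The 2 lines had like empty vector levels, and all 4 CTBP2 libraries were higher, with a log2 difference of 1.41 ± 0.16 (limma adjusted p = 0.00212). GBP2, a guanylate-binding protein, had 0.928 and 0.771 FPKM then 3.07 and 2.78 in MM.1S and 0.493 and 0.394 then 2.48 and 2.08 in NCI-H929. Its difference of 1.13 ± 0.11 (limma adjusted p = 0.00151) was of like size in each line, at 1.08 ± 0.14 and 1.18 ± 0.14. GBP1 differed mainly by line, with 10.6 and 10.3 FPKM with empty vector and 15.4 and 14.9 with CTBP2 in MM.1S, and 0.0667 and 0.0561 and 0.331 and 0.257 in NCI-H929. Its groups did not overlap within a line, the difference in both lines together was 0.39 ± 0.10 (limma adjusted p = 0.0214), and without both CTBP2 replicate 2 libraries it was not called (adjusted p = 0.0575). MX2 was below the filter, at 0.193 to 0.809 FPKM.

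Among the membrane-associated factors 3 of 6 were kept, and they differed in direction. PLSCR1, a phospholipid scramblase, had 8.398 and 7.12 FPKM with empty vector and 12.7 and 8.93 with CTBP2 in MM.1S, and 0.903 and 1.003 and 4.91 and 3.998 in NCI-H929, with no overlap within a line. It rose by 0.95 ± 0.22 on the log2 scale (limma adjusted p = 0.0126). BST2 (tetherin), which holds virus particles at the cell surface, was the most highly expressed of the 55 genes at 144 to 459 FPKM, and its difference was -0.15 ± 0.18 (limma adjusted p = 0.548), not called. IFITM1, which hinders virus entry, was the 1 kept gene called lower (-0.67 ± 0.22, limma adjusted p = 0.0408). It had 4.03 and 2.28 FPKM with empty vector and 0.722 and 1.02 with CTBP2 in NCI-H929, and 0.309 FPKM or less in the 4 MM.1S-expressing libraries. The call of IFITM1 was lost without both CTBP2 replicate 2 libraries (adjusted p = 0.0987) and with equal totals, and reads of IFITM1, IFITM2 and IFITM3, which are near-identical in part, may be split between them. IFITM2, IFITM3 and RSAD2 (viperin) were below the filter, and RSAD2 reached 2.78 FPKM in NCI-H929 CTBP2 replicate 1 against 0.775 or less in the other 7 libraries.

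In the nuclear body group 2 of 3 kept genes, PML and SP100, were called higher in both lines together. SP100 had 14.02 and 12.5 FPKM with empty vector and 15.8 and 12.3 with CTBP2 in MM.1S, where the pairs overlapped, and 6.17 and 6.66 and 18.7 and 16.6 in NCI-H929, where they lay far apart. SP110 went from 6.46 and 5.04 to 4.47 and 3.75 FPKM in MM.1S and from 0.905 and 0.492 to 2.78 and 2.77 in NCI-H929, where it rose (limma adjusted p = 0.00403), while the change in MM.1S was not called (adjusted p = 0.205). The log2 differences in both lines together were 0.70 ± 0.24 for SP100 (limma adjusted p = 0.0467), 0.41 ± 0.11 for PML (adjusted p = 0.0243) and 0.38 ± 0.29 for SP110 (adjusted p = 0.3102, not called). PML, the scaffold of these bodies, was not called without both CTBP2 replicate 2 libraries (adjusted p = 0.107), and SP100 was called in 2 of the 8 fits that left out 1 library. TRIM22, an antiviral ubiquitin ligase, was below the filter.

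Of the 10 other kept genes, 7 were called higher in both lines together. IFI44 shared the smallest limma adjusted p of the 45 with GBP2. Both needed their CTBP2 libraries to pass the filter, so their rises are given as a description. IFI44 had 0.898 and 1.29 FPKM with empty vector and 5.95 and 5.95 with CTBP2 in MM.1S, and 0.0945 and 0.0346 and 2.796 and 1.43 in NCI-H929. EPSTI1 read 3.85 and 4.11 then 9.11 and 8.19 FPKM in MM.1S and 0.0162 and 0.124 then 1.64 and 1.64 in NCI-H929. IFI6, a mitochondrial and endoplasmic reticulum protein that limits cell death, read 5.39 and 8.16 then 16.8 and 18.4 FPKM in MM.1S and 14.7 and 10.7 then 23.7 and 30.3 in NCI-H929. No pair of these 3 genes overlapped within a line, and for IFI44 and IFI6 all 4 CTBP2 libraries were above all 4 empty vector libraries. Their log2 differences were 1.63 ± 0.16 for IFI44 (limma adjusted p = 0.00151), 1.13 ± 0.12 for EPSTI1 (adjusted p = 0.00197) and 1.16 ± 0.16 for IFI6 (adjusted p = 0.00323). XAF1, a pro-apoptotic partner of the inhibitor XIAP, had 0.348 and 0.239 FPKM with empty vector and 3.41 and 1.23 with CTBP2 in MM.1S, and 0.0748 and 0.202 and 1.33 and 3.26 in NCI-H929. SAMD9L, a restriction factor of poxviruses, had 16.8 and 13.3 then 23.9 and 17.9 FPKM in MM.1S and 1.8 and 3.07 then 6.66 and 8.33 in NCI-H929. XAF1 started under 1 FPKM in all empty vector libraries, whereas SAMD9L started high in MM.1S and low in NCI-H929. The differences were 1.38 ± 0.24 for XAF1 (limma adjusted p = 0.00582) and 0.88 ± 0.22 for SAMD9L (adjusted p = 0.0149).

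RTP4 and UBD showed the widest shifts of this group. RTP4, a chaperone of membrane receptors and a brake on interferon responses, had 13.7 and 16.6 FPKM with empty vector and 35.3 and 32.6 with CTBP2 in MM.1S, and 0.486 and 0.514 and 12.6 and 13.8 in NCI-H929. With CTBP2 the NCI-H929 libraries came close to the MM.1S empty vector level, and the log2 difference in both lines together was 2.18 ± 0.36 (limma adjusted p = 0.00503). UBD (FAT10), a ubiquitin-like modifier, went from 0.821 and 0.361 to 48.6 and 19.9 FPKM in MM.1S. In NCI-H929 it was listed at 0 in both empty vector libraries and at 0.485 and 0.511 FPKM with CTBP2. The MM.1S pairs were far apart and the NCI-H929 values stayed under the MM.1S empty vector maximum, with a log2 difference in both lines together of 2.47 ± 0.66 (limma adjusted p = 0.02101). IFI27, a mitochondrial protein, had 0.518 and 0.371 then 0.807 and 0.941 FPKM in MM.1S and 0.522 and 1.46 then 1.83 and 5.53 in NCI-H929 and was not called (0.76 ± 0.28, limma adjusted p = 0.0622). IFI35, at 20.5 to 36.5 FPKM, and SAMD9, at 3.59 to 15.4 FPKM, were not called either, and IFI44L, CMPK2 and LGALS3BP were below the filter at 0.798 FPKM or less.

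The effect of CTBP2 differed between the lines for 5 of the 45 genes by a test of the difference itself. It was higher in NCI-H929 for RTP4, HERC5, SP110 and SP100, against 0.922% of all genes, and lower there for UBD, against 0.334%. For RTP4 the log2 difference was 1.12 ± 0.15 in MM.1S and 3.24 ± 0.15 in NCI-H929, which differ by 2.12 ± 0.21 (SE; limma adjusted p = 0.0119). HERC5 had -0.51 ± 0.16 and 1.09 ± 0.16, which differ by 1.60 ± 0.23 (limma adjusted p = 0.0224). SP110 and SP100 differed by 1.56 ± 0.26 (limma adjusted p = 0.0362) and 1.25 ± 0.23 (adjusted p = 0.0498), from -0.40 ± 0.18 and 0.072 ± 0.17 in MM.1S to 1.16 ± 0.18 and 1.33 ± 0.17 in NCI-H929. UBD went the other way, with 4.36 ± 0.35 in MM.1S and 0.58 ± 0.35 in NCI-H929, which differ by -3.77 ± 0.49 (limma adjusted p = 0.0165).

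None of these 5 calls held in all fits that left out 1 library, for which shares of all genes are not given here. RTP4 was called in 5 of 8 and UBD in 4 of 8, HERC5 in 2, SP110 in 1 and SP100 in 0, and the count over the 45 genes ran from 0 to 7. The count of 0 came without replicate 2 of the MM.1S empty vector or replicate 1 of the NCI-H929 empty vector, and the 7 without NCI-H929 CTBP2 replicate 1. 1 gene was left without replicate 1 of the MM.1S empty vector or the library labelled NCI-H929 CTBP2 replicate 2, and 2 were without MM.1S CTBP2 replicate 1 or replicate 2 of the NCI-H929 empty vector. Without both CTBP2 replicate 2 libraries 3 genes differed between lines, against 0.35% of all genes, namely OASL, IFIT3 and UBD. RTP4, HERC5, SP110 and SP100 lost their call there, with limma adjusted p of 0.05296, 0.0562, 0.148 and 0.148. UBD had passed the filter of 1 FPKM only through its 2 MM.1S-expressing CTBP2 libraries, so its difference is given as a description. Its call, like those of SP110 and SP100, was lost with 0.1 FPKM in place of 1 added before the log, and with no filter. With lines as labelled 0 genes differed between lines by limma, against 0.0159%. At an unadjusted limma p under 0.05 there were 10, against 912 of the 12583 genes tested. For 35 of the 45 the estimated difference was above 0, with a median of 0.55 against 0.017 over all genes. OAS1, at 1.92 ± 0.41, and IFIH1, at 1.12 ± 0.22, had limma adjusted p of 0.0717 and 0.0535 and were not called.

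**Figure D3:**
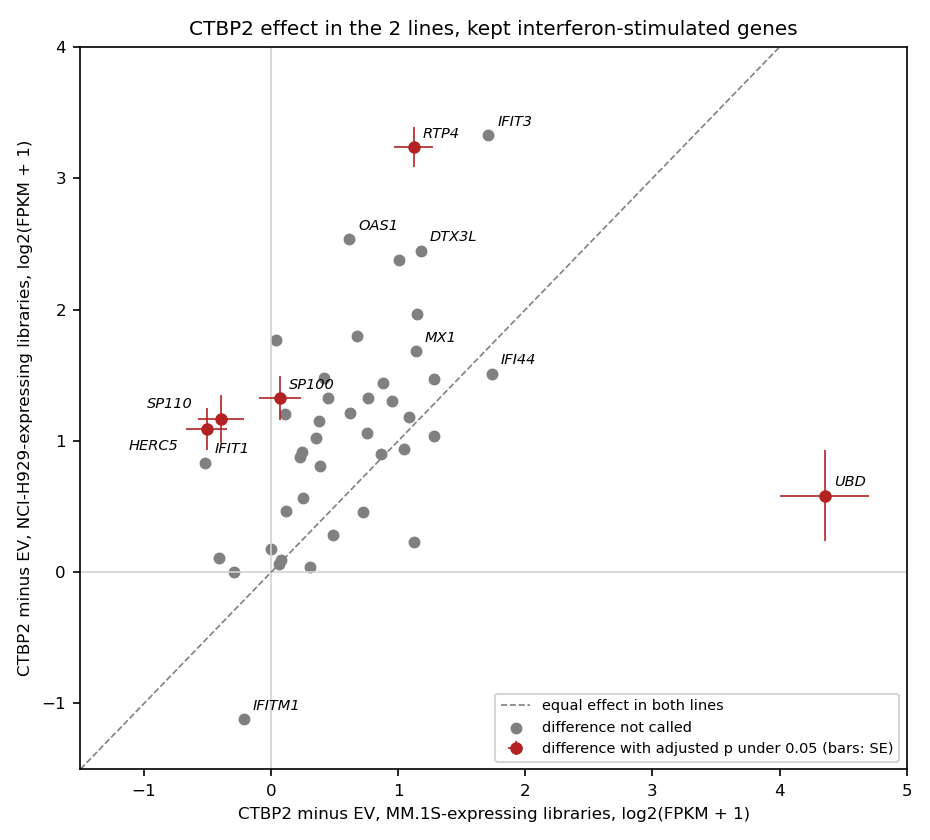
CTBP2 minus empty vector on the log2(FPKM + 1) scale in the MM.1S-expressing libraries (x axis) against the NCI-H929-expressing libraries (y axis), 1 point for each of the 45 kept interferon-stimulated genes. Red points with standard error bars are the 5 genes whose difference between lines had a limma adjusted p under 0.05. RTP4, HERC5, SP110 and SP100 lie above the dashed line of equal effect and UBD lies far below it.

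The 2 lines started from different levels. With empty vector, 23 of the 45 genes were lower in NCI-H929 than in MM.1S, against 28.7% of all genes tested, and 7 were higher, against 22.1%. With both CTBP2 replicate 2 libraries left out 24 were lower, against 30.9%, and 8 higher, against 23.7%. With the lines as labelled 0 were called by limma, against 0.0397%. At an unadjusted limma p under 0.05 there were 20, against 3064 of the 12583 genes tested. The empty vector libraries keep their line there, so the differences themselves did not change. Only the spread, which is shared with the CTBP2 libraries, did. The median log2 difference was -0.65, against -0.10 over all genes. GBP1 (-3.44 ± 0.13) and RTP4 (-3.42 ± 0.15) were furthest below MM.1S, followed by SAMD9L (-2.24 ± 0.24) and EPSTI1 (-2.22 ± 0.14), all with limma adjusted p of 0.0001298 or less. Higher in NCI-H929 were IRF9, OAS2, ADAR, ISG15, IFITM1, IFI6 and IFI35, with ISG15 at 2.44 ± 0.24 (limma adjusted p = 8.85e-05). Set beside these, the CTBP2 differences in NCI-H929 were 0.29 ± 0.13 for GBP1 (limma adjusted p = 0.134), 1.32 ± 0.24 for SAMD9L (adjusted p = 0.00633), 1.30 ± 0.14 for EPSTI1 (adjusted p = 0.00145) and 0.47 ± 0.24 for ISG15 (adjusted p = 0.162). The comparison of the lines and that of the vectors share the empty vector libraries, so no overlap between them is given. The sum over all 55 genes was 834 and 941 FPKM with empty vector and 1062 and 1030 with CTBP2 in the MM.1S-expressing libraries, and 600 and 558 and 908 and 847 in the NCI-H929-expressing ones, with no overlap within a line.

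The 2 CTBP2 libraries of each line agreed for most of the 45 genes, but not for all. In MM.1S, UBD alone differed by more than 1 on the log2(FPKM + 1) scale, against 0.517% of all genes, and MM.1S CTBP2 replicate 1 was the higher library. In NCI-H929 4 genes did, against 3.8% of all genes. OASL and IFIT3 were higher in NCI-H929 CTBP2 replicate 1, by 2.33 and 1.89, while IFI27 and IRF1 were higher in its partner, the library labelled MM.1S CTBP2 replicate 2, with replicate 1 minus that library at -1.21 and -1.05. The empty vector pairs differed by that much for 0 of the 45 genes in either line, a count made with no test, against 0.525% and 1.09% of all genes. The standard deviation of the difference over the 45 genes was 0.63 in the NCI-H929 CTBP2 pair and 0.32 in the MM.1S CTBP2 pair, against 0.31 and 0.29 in the empty vector pairs, and over all genes 0.53 and 0.34 against 0.43 and 0.35. The 2 NCI-H929-expressing CTBP2 libraries also differed in CTBP2 itself, at 5884 and 3427 FPKM, and in CD3E, at 16.7 and 53.1 FPKM, and the part of these in the differences was not tested. The 2 CTBP2 libraries of a pair also carry different line labels, and what else set them apart cannot be told apart from that.

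**Figure D4:**
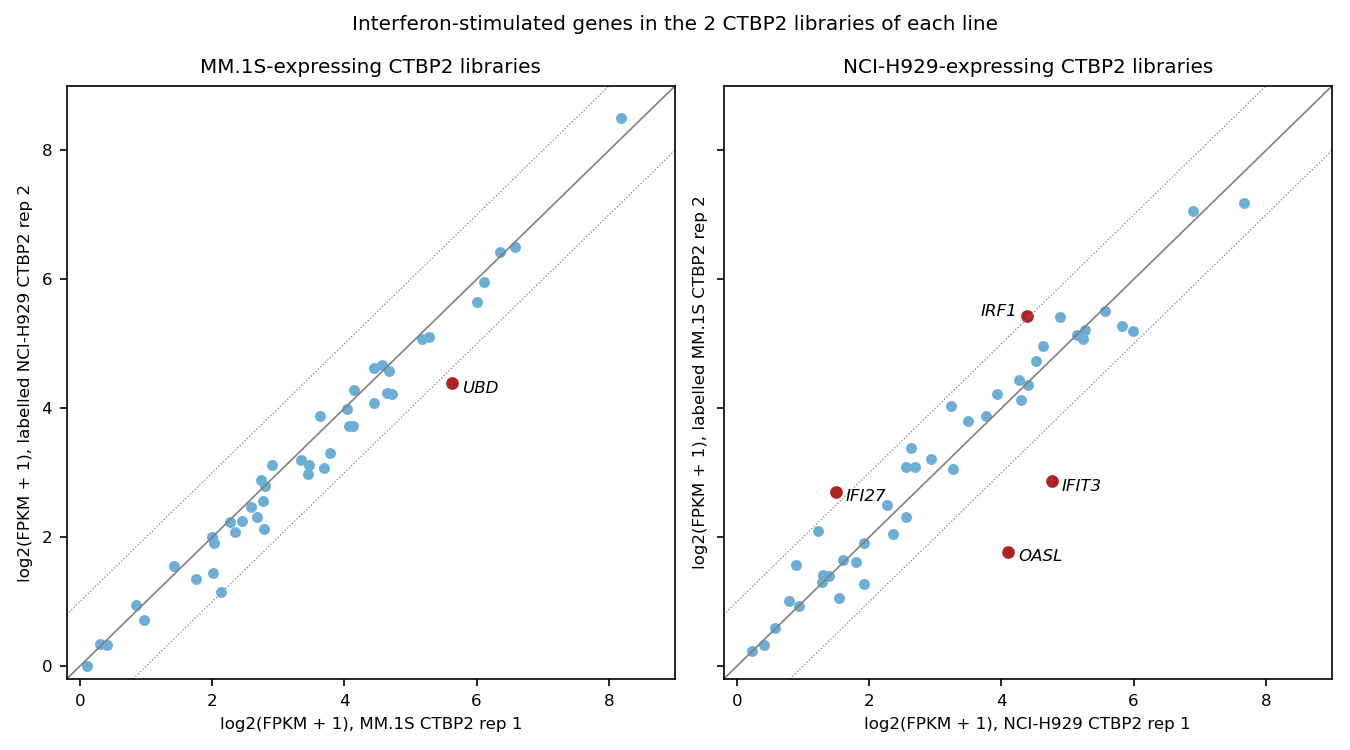
log2(FPKM + 1) of the 45 kept interferon-stimulated genes in the 2 CTBP2 libraries that express MM.1S genes (left) and the 2 that express NCI-H929 genes (right), with replicate 1 on the x axis and replicate 2, which goes against its line label, on the y axis. The solid line marks equal levels and the dotted lines a difference of 1. UBD lies outside the dotted lines on the left, and OASL, IFIT3, IFI27 and IRF1 lie outside on the right.

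The rest of the interferon pathway was followed through lists of its ligands, receptors, sensors, regulators and targets. Of 103 further listed pathway genes 75 were kept, and in both lines together 21 rose (28%, limma adjusted p under 0.05), against 17.4% of all genes, and 6 fell (8%), against 16.7%. Their median log2 difference was 0.25, against 0.035 over all genes. Some of the 21, such as TRIM34 and DHX58, needed their CTBP2 libraries to pass the filter. The count was not repeated among genes kept by their empty vector libraries. In the 6 libraries other than CTBP2 replicate 2, 16 rose, against 11.5%, and 5 fell, against 13.0%. With the lines as labelled 4 rose, against 1.53%, and 0 fell by limma, against 1.81%. At an unadjusted limma p under 0.05, 6 were lower, against 1506 of the 12583 genes tested. None of the 21 interferon ligand genes passed the filter, and the highest value of any was 0.436 FPKM for IFNA21, from the library labelled MM.1S CTBP2 replicate 2. IFNB1, which encodes interferon beta, was listed at 0 in the 4 empty vector libraries, at 0.133 and 0.0755 FPKM in the MM.1S-expressing CTBP2 libraries and at 0.0739 and 0.139 FPKM in the NCI-H929-expressing ones. It was the 1 ligand gene whose CTBP2 libraries all lay above the empty vector libraries, at levels that rest on few fragments and with no test. Of 11 receptor and JAK-STAT genes 4 rose (36.4%), against 17.4% of all genes, and 1 fell (9.09%), against 16.7%. IFNAR2, a chain of the type I receptor, had 69.5 and 69.1 FPKM with empty vector and 40.8 and 43.2 with CTBP2 in MM.1S, and 37.3 and 51.7 and 30.9 and 31.3 in NCI-H929, a log2 difference of -0.60 ± 0.13 (limma adjusted p = 0.00968). Its groups did not overlap within a line. Among those that rose, the log2 differences were 0.75 ± 0.11 for STAT3, 0.65 ± 0.13 for IFNGR1 and 0.67 ± 0.15 for JAK2, with limma adjusted p of 0.0113 or less. IFNAR1 (-0.0098 ± 0.16), JAK1 (0.77 ± 0.29) and TYK2 (0.17 ± 0.12) were not called, with limma adjusted p of 0.967, 0.0648 and 0.268.

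Of 16 kept genes that sense nucleic acid upstream of interferon, 1 rose (6.25%), against 17.4% of all genes, and 1 fell (6.25%), against 16.7%. DHX58, the RIG-I-like protein LGP2, rose by 1.08 ± 0.18 (limma adjusted p = 0.00471). DHX58 reached 1 FPKM in only 1 empty vector library and needed CTBP2 libraries to pass the filter, so its rise is given as a description. MB21D1, the DNA sensor cGAS, fell (-0.44 ± 0.13, limma adjusted p = 0.0307), a call lost without both CTBP2 replicate 2 libraries (adjusted p = 0.0709). Of 8 genes that clear nucleic acids, 2 rose (25%), against 17.4% of all genes, and 3 fell (37.5%), against 16.7%, which were the 3 subunits of RNase H2. SAMHD1, which breaks down the building blocks of DNA, was 1 of those that rose, with 19.98 and 16.5 then 24.04 and 19.96 FPKM in MM.1S and 15.8 and 18.2 then 22.9 and 29.4 in NCI-H929, a difference of 0.42 ± 0.14 (limma adjusted p = 0.0427, and 0.0774 without both CTBP2 replicate 2 libraries). RNASEH2A, the catalytic subunit of RNase H2, had 38.05 and 52.4 then 13.3 and 23.9 FPKM in MM.1S and 82.3 and 54.8 then 41.3 and 20.7 in NCI-H929, a difference of -1.22 ± 0.26 (limma adjusted p = 0.00922). The SAMHD1 libraries overlapped in MM.1S, whereas RNASEH2A was lower in both CTBP2 libraries of each line. Of 9 negative regulators 1 rose (11.1%), against 17.4% of all genes. It was IRF2BP2 (0.46 ± 0.14, limma adjusted p = 0.0354, and 0.0995 without both CTBP2 replicate 2 libraries). Of 31 further interferon-stimulated genes 13 rose (41.9%), against 17.4% of all genes, and 1, PNPT1, fell (3.23%), against 16.7%. The rises with the smallest p were NMI at 1.14 ± 0.12, TRIM5 at 1.23 ± 0.15 and TRIM34 at 0.86 ± 0.13, with limma adjusted p of 0.00427 or less. TRIM34 was under 1 FPKM in all empty vector libraries and passed the filter through its CTBP2 libraries, so its rise is given as a description. In NCI-H929 28 of the 75 pathway genes rose (37.3%), against 18.3% of all genes, and 5 fell (6.67%), against 14.6%. In MM.1S 5 rose (6.67%), against 3.67%, and 0 fell, against 1.8%. At an unadjusted limma p under 0.05, 13 were lower, against 1655 of the 12583 genes tested. In the same 6 libraries 18 were called in NCI-H929, against 15.3%, and 11 in MM.1S, against 11.4%. With the lines as labelled limma called 0 in either line. At an unadjusted limma p under 0.05 there were 19 in NCI-H929 and 17 in MM.1S, against 2090 and 2429 of the 12583 genes tested. APOBEC3G, a cytidine deaminase, was the 1 pathway gene whose effect differed between lines, by 1.62 ± 0.26 (limma adjusted p = 0.0362), and it was not called without both CTBP2 replicate 2 libraries (adjusted p = 0.125) or with the lines as labelled (adjusted p = 0.497).

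The motif counts did not separate the genes that rose from the rest. Among interferon-stimulated genes with a promoter entry, 16 of 26 called higher in both lines together held the response element core (61.5%), as did 8 of 13 that were tested and not called higher (61.5%) and 3 of 5 below the filter. The gamma-activated motif was in 6 of 26 and 5 of 13. A match describes letters in a window and not a bound site.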

How the data were processed

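Per the labels' protocols, total RNA was made into TruSeq libraries, 8 in all. The authors deposited FPKM values for 25906 genes, a unit taken from the deposited table's name and its values. Per the submitters' processing notes the build was GRCh37 (hg19) and the tools included STAR 2.6.0b-1, Trimmomatic 0.36.5, HTSeq 0.9.1 and DESeq2 2.11.40.2. Not given in the sources used here are the tool behind the FPKM, its annotation and whether it used strand. As values are scaled to transcript length and to the library total, a few very abundant features lower all others.

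Depth was estimated from steps between low FPKM values of transcripts over 1500 bases, of which 55.0 to 67.0% were whole numbers of fragments to within 0.1 (20% would be by chance). It was not used as counts.

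Vectors came from the sample titles and lines from CCND2 and FGFR3, as described. Genes with at least 1 FPKM in 2 libraries, 12583 in all, were tested on log2(FPKM + 1) with limma 3.58.1 in R 4.3.3 (lmFit, and eBayes with a trend), with Benjamini-Hochberg adjusted p under 0.05 over all genes. Both lines together used a model of vector and line (5 residual degrees of freedom). Effects within a line, their difference and the baseline used 1 mean per line and vector (4 degrees of freedom). Other settings tried were the filter (none, or 5 FPKM), a pseudocount of 0.1, 3 scalings (quantile normalization, median of ratios, and equal totals without immunoglobulin genes and CTBP2), lines as labelled, 6 libraries without the 2 that go against their labels, a replicate block and leaving out each library. The code was tested on simulated data. Promoter motifs were searched with Python 3.11.15.

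The 55 genes, the pathway and marker lists, the tests and the alternatives were chosen with earlier results of these data known. Genes named with a value in every library are the 25 called in both lines together with the smallest p, those whose effect differed between lines, those whose 2 CTBP2 libraries of a line differed by over 1 on the log2 scale, and MX1, IFIT1, OAS1, ISG15, IFI6, STAT2, IRF9, IRF1, IRF7 and DDX58. From each pathway list up to 3 called genes with the smallest p are named, and IFNAR1, IFNAR2, JAK1 and TYK2. Some genes that this rule names are in the counts but not reported singly here. Further names, such as HERC6, RSAD2, PNPT1 and APOBEC3G, and the markers named with values, were chosen after their values were seen.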

Additional observations from a re-analysis of the deposited data

Results flagged for a closer look

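5 interferon-stimulated genes had a CTBP2 effect that differed between the lines by a test of the difference (limma adjusted p under 0.05 over all genes), with 2 libraries per line and vector. RTP4 rose more in NCI-H929 than in MM.1S, by 2.12 on the log2(FPKM + 1) scale (limma adjusted p = 0.0119). The difference was 1.60 for HERC5 (limma adjusted p = 0.0224), whose MM.1S-expressing CTBP2 libraries both lay below their empty vector libraries and whose NCI-H929-expressing ones both lay above. SP110 libraries lay in the same order, with a difference of 1.56 (limma adjusted p = 0.0362). In MM.1S the change itself was not called for HERC5 (limma adjusted p = 0.0943) or SP110 (adjusted p = 0.205). For SP100 it was 1.25 (limma adjusted p = 0.0498), and this call was lost in each of the 8 fits that left out 1 library. UBD rose in MM.1S and had a difference of -3.77 (limma adjusted p = 0.0165), but in NCI-H929 it was listed at 0 in both empty vector libraries, and it passed the filter only through the 2 MM.1S-expressing CTBP2 libraries. Without both CTBP2 replicate 2 libraries UBD was the 1 of the 5 still called. There the limma adjusted p were 0.05296 for RTP4, 0.0562 for HERC5, 0.148 for SP110 and 0.148 for SP100. The calls of UBD, SP110 and SP100 were lost with a pseudocount of 0.1 and with no filter. With the lines as labelled none of the 5 was called, with limma adjusted p of 0.497 to 0.997.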

How the results depend on the processing

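Counts of called interferon-stimulated genes among the 45 (55 with no filter) moved most with the line of the 2 CTBP2 replicate 2 libraries. With lines as labelled, 9 were called in both lines together in place of 31. In MM.1S, NCI-H929, the difference between lines and the baseline 0 were, in place of 15, 33, 5 and 30. At an unadjusted limma p under 0.05 there were 15, 27, 10 and 20, against 2429, 2090, 912 and 3064 of the 12583 genes tested. Baseline differences themselves did not change, as the empty vector libraries keep their line, and only the shared spread did. With no filter 5 were called in MM.1S and 2 in the difference. The difference count was 3 with a pseudocount of 0.1, with a filter of 5 FPKM, with quantile normalization, without both CTBP2 replicate 2 libraries and with the replicate block. The median-of-ratios rescale, equal totals and the other counts under these settings stayed within 1.5 times. Leaving out 1 library at a time gave 24 to 30 calls in both lines together, 1 to 21 in MM.1S, 22 to 32 in NCI-H929, 0 to 7 in the difference and 22 to 32 at baseline. Where that leaves 1 library in a group, it is assumed to vary like the other groups. Shares of all genes called in these fits and with the replicate block are not given here.

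For the named genes, 530 results kept their direction and side of the threshold, 96 lost their call, 7 gained one and 4 changed sign. The sign changes were UBD in the difference with lines as labelled, at 0.020, and IFIT1 in both lines together with quantile normalization, at -0.071, without NCI-H929 empty vector replicate 1, at -0.10, and without NCI-H929 CTBP2 replicate 1, at -0.073 (-0.10 to 0.36 over the 8 fits that leave out 1 library). The cause was not tested.

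Replicate numbers are 2 per group and no label ties them to a culture. With lines read from expression, deviations of same-numbered libraries correlated at 0.44 in MM.1S and 0.45 in NCI-H929 across genes, so the crossed pairing was not run, and the replicate block gave 27 calls in both lines together, 11 in MM.1S, 32 in NCI-H929 and 28 at baseline. In the difference between lines HERC5 and SP100 were not called with the block, at limma adjusted p of 0.0528 and 0.0753, while RTP4, UBD and SP110 were. Values under about 1 FPKM rest on few fragments and are the least precise.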
